A study of Mus musculus with 18 samples.

Results

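A set of 6 genes that FGF signalling switches on through the kinase ERK was followed in mouse palate: Spry1, Spry2, Spry4, Dusp6, Etv4 and Etv5. They were chosen by symbol, as all probe sets whose platform annotation gives 1 of these symbols alone, which gave 13 of the 45101 probe sets on the array and 6 of the 18193 genes measured. On GRCm38.p6 the genes lie at chr3:37639947-37644599 (Spry1), chr14:105891947-105896819 (Spry2), chr10:99263231-99267489 (Dusp6), chr11:101769747-101785310 (Etv4) and chr16:22381313-22439570 (Etv5), and Spry4 lies on chromosome 18. In posterior palate at embryonic day 15.5, Dusp6 and Etv5 were higher in mutants that lack Tgfbr2 in epithelium than in controls, by 1.25-fold and 1.48-fold. The 3 Sprouty genes and Etv4 did not pass the test. None of the 6 genes passed it between posterior and anterior palate of controls. These calls come from a fit of all 3 groups together. With only the 2 compared groups in the fit, Etv5 passed between the control regions and did not pass between mutants and controls.

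The 3 groups held 6 arrays each. Mutant posterior palate came from K14-Cre;Tgfbr2 fl/fl embryos, control posterior palate and control anterior palate from Tgfbr2 fl/fl embryos, all on the C57BL/6J strain, of undetermined gender and at embryonic day 15.5. All 3 groups therefore carry the floxed Tgfbr2 alleles, and only the mutants also carry Cre, driven by the keratin 14 promoter, which is active in epithelium. Mutants and controls came from separate litters, so litter and genotype cannot be told apart. The study text speaks of 5 samples in each group where the labels list 6, and the labels do not say which embryo or pool a sample came from, so p-values measure only the spread between these samples. The study asked how lost TGF-beta signalling in palatal epithelium affects its exchange with muscle fibres.

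In the FGF pathway, a ligand binds a receptor tyrosine kinase, adaptor proteins pass the signal to RAS, and RAF and MEK kinases then activate ERK. ERK activity induces its own brakes, among them the Sprouty proteins, which dampen signalling between the receptor and RAF, and DUSP6, a cytoplasmic phosphatase that removes the activating phosphates from ERK. ETV4 and ETV5 are ETS-family transcription factors whose genes are widely used as readouts of FGF signalling, and FGF signals pass between epithelium and mesenchyme while the palatal shelves grow and fuse.

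ETS factors bind DNA around the core GGAA, and the bases before the starts of Dusp6 and Etv5, the genes that passed the test, are shown with every GGAA on either strand in capitals (TTCC is the core read on the other strand). The sequences are from RefSeq on GRCm38.p6, each 250 bases, written 5′ to 3′ on the gene's strand up to the base before the start. They lie at chr10:99262981-99263230 (plus strand, Dusp6), chr16:22439571-22439820 (minus strand, first Etv5 start) and chr16:22438369-22438618 (minus strand, second Etv5 start).
Dusp6: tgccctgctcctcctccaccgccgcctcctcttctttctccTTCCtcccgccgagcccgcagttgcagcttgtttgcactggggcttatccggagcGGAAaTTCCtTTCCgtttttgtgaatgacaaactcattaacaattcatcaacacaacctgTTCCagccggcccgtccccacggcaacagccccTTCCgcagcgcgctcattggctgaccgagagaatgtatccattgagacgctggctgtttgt
Etv5, first start: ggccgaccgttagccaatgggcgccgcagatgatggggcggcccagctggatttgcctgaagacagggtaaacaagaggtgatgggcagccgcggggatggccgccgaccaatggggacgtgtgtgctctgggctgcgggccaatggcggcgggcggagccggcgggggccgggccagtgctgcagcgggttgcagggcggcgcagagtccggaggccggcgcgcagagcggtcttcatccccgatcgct
Etv5, second start: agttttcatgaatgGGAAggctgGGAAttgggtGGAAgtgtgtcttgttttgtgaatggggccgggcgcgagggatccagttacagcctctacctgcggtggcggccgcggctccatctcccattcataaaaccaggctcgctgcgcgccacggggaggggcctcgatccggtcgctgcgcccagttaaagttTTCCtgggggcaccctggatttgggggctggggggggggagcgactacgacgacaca
The Dusp6 stretch holds 6 cores, the first Etv5 start 0 and the second 4, where all 32851 mouse starts had a median of 3 (quartiles 2 and 4) and 93.4% held at least 1. The longer motif AGGAAG, which contains the core, lay once in the Dusp6 stretch on the minus strand, 210 bases before the start, and was found on either strand at 29.5% of all starts. CCGGAA, which also contains the core, was in none of the 3 stretches and at 12% of all starts. Spry1 (1 core) and Spry2 (3 cores) also matched the promoter table, and Spry4 and Etv4 are only named. A match is a description of letters, not a binding site.

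Values are on the log2 scale after RMA (background correction, quantile normalization and summary per probe set). Array means lay between 6.35 and 6.37 on mutant arrays 1 to 3 and between 6.26 and 6.28 on all other arrays. Spike-in controls added before labelling averaged 7.90 ± 0.55 on mutant posterior arrays, against 10.3 ± 0.75 on control posterior and 10.2 ± 0.82 on control anterior arrays (mean ± SD of 6 arrays), without overlap between mutant and control arrays. Sample handling and genotype therefore cannot be told apart, which limits every mutant comparison below. Hybridization spike-ins put arrays 1 to 3 of a group apart from arrays 4 to 6: they read 11.4 to 11.9 on mutant arrays 1 to 3 and 10.7 to 10.8 on mutant arrays 4 to 6, against 10.5 to 10.6 and 10.9 to 11.1 on control arrays of those numbers. The brightest Tgfbr2 probe set averaged 11.01 ± 0.27 in mutant and 10.46 ± 0.20 in control posterior palate; its position relative to the deleted part was not analysed here and the deletion touches epithelium only, so it does not check the genotype. The labelled tissue carried its markers, with 10 palate mesenchyme genes averaging 10.03, 10.04 and 10.14 in mutant posterior, control posterior and control anterior palate. No detection calls were used here, and 71 sensory receptor genes, which palate is not known to use, served to judge dim probe sets: their median was 3.58 and their 95th percentile, called the background reading here, was 5.24, against a median of 7.38 over all genes.

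Sprouty genes encode membrane-associated inhibitors of receptor tyrosine kinase signalling. Spry1 (probe set 1415874_at) read 8.98 at the lowest, 9.38 at the median and 9.89 at the highest in mutant posterior palate, against 9.21, 9.26 and 9.36 in control posterior palate. Mutant arrays 1 and 2 stood highest and array 6 lowest, so the mutant range enclosed that of the controls and the groups overlapped. The difference was 0.17 (SE 0.13, 95% interval -0.11 to 0.44), with an adjusted p of 0.442 in limma.

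Spry2 (1436584_at) read 7.95, 8.52 and 8.93 in mutant posterior palate at the lowest, median and highest array, against 8.16, 8.44 and 8.65 in control posterior palate. Here too mutant arrays 1 and 2 were highest and array 6 lowest, and the mutant range again enclosed the control range. The difference was 0.05 (SE 0.15, 95% interval -0.27 to 0.37, adjusted p = 0.865, limma), and its sign turned when mutant array 1 was left out (-0.039), when mutant array 2 was (-0.016) and when control posterior array 2 was (-0.0054). The dimmer Spry2 probe set, 1421656_at, averaged 5.29 ± 0.31 in mutant and 5.43 ± 0.24 in control posterior palate (SD, n = 6 each) and stood above the background reading on only 11 of 18 arrays.

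Spry4 (1445669_at) read 6.27, 6.74 and 7.74 in mutant posterior palate, against 6.54, 6.75 and 7.11 in control posterior palate (lowest, median and highest). Only mutant array 4 lay above every control posterior array, and mutant arrays 2 and 3 lay below them all. The difference was 0.06 (SE 0.22, 95% interval -0.40 to 0.53, adjusted p = 0.886, limma), and without mutant array 4 it was -0.12. Spry4 has 3 further probe sets, of which 1440867_at was above the background reading on all 18 arrays and the other two, 1422021_at and 1422020_at, on 0; their genotype differences lay between -0.18 and 0.10 and none passed the test.

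**Figure D1:**
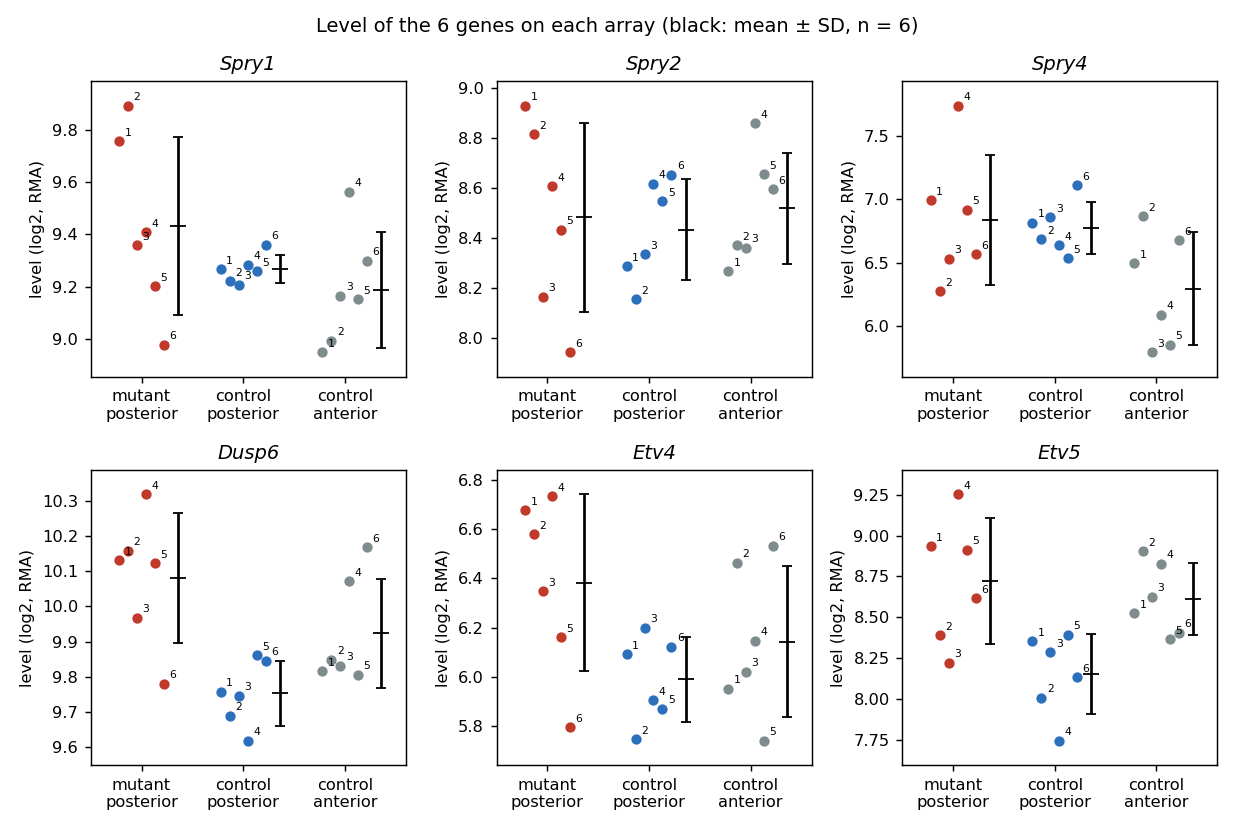
Level of each gene's brightest probe set on every array (log2, vertical axis; the axes differ between panels), with the array's number beside its point and the mean ± SD (n = 6) in black; mutant posterior arrays are red, control posterior blue and control anterior grey. For Dusp6, 5 of 6 mutant posterior arrays lie above all 6 control posterior arrays, for Etv5 4 of 6, and for the Sprouty genes the mutant points spread to both sides of the control posterior points.

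Dusp6, the phosphatase that inactivates ERK, has a single probe set (1415834_at) and rose in the mutant. Its levels were 9.78, 10.13 and 10.32 in mutant posterior palate at the lowest, median and highest array, against 9.62, 9.75 and 9.86 in control posterior palate. 5 mutant arrays lay above every control posterior array, and only mutant array 6 lay within the control range, so the groups overlapped by 1 array. The difference was 0.33 (SE 0.09, 95% interval 0.14 to 0.51), 1.25-fold, with an adjusted p of 0.0208 in limma.

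Etv5, an ETS-family transcription factor gene with the largest of the 6 differences, was measured by 3 probe sets, and all of them rose. Its brightest, 1428142_at, read 8.22, 8.77 and 9.25 in mutant posterior palate, against 7.74, 8.21 and 8.39 in control posterior palate (lowest, median and highest). Mutant array 4 was the highest and control posterior array 4 the lowest; mutant arrays 2 and 3 lay within the control range. The difference was 0.57 (SE 0.16, 95% interval 0.23 to 0.91), 1.48-fold, with an adjusted p of 0.0250 in limma. The probe set 1450082_s_at read 6.09, 6.50 and 6.93 in mutant against 5.44, 5.91 and 6.11 in control posterior palate, a difference of 0.63 (SE 0.15, adjusted p = 0.0106 over 45037 probe sets, limma). Its groups overlapped by the lowest mutant array. The probe set 1420998_at read 4.93, 5.03 and 5.40 in mutant against 4.50, 4.66 and 4.84 in control posterior palate, a difference of 0.45 (SE 0.10, adjusted p = 0.0104, limma). It was the only one of the 13 probe sets whose mutant and control posterior arrays did not overlap, a pattern seen with the mutant higher at 3.2% of all probe sets, and it was above the background reading on only 2 of 18 arrays. The platform annotation ties 1450082_s_at and 1420998_at to the same source sequence, so they are not independent measures.

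Etv4, the close relative of Etv5, differed in the same direction but did not pass the test. Its brightest probe set (1423232_at) read 5.80, 6.46 and 6.73 in mutant posterior palate, against 5.75, 6.00 and 6.20 in control posterior palate. 4 mutant arrays lay above every control posterior array, while mutant arrays 5 and 6 lay within the control range. The difference was 0.39 (SE 0.16, 95% interval 0.06 to 0.72), 1.31-fold, with an adjusted p of 0.110 in limma; without mutant array 6 it was 0.51 and the adjusted p was 0.0241. The dim probe set 1443381_at, above the background reading on 0 arrays, differed by 0.27 (SE 0.10, adjusted p = 0.0778, limma).

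Of the 6 genes, 2 were called higher in mutant posterior palate and 0 lower, where 13.5% of all 18193 genes were called, 7.73% higher. By probe set, 4 of 13 were called (that of Dusp6 and all 3 of Etv5), all higher, where 10.7% of 45037 probe sets were called, 6.44% higher. The 6 differences were all positive, with a median of 0.25, against a median of 0.04 and 58.3% positive over all genes. Both calls depend on the setting. For Dusp6 and Etv5 they were lost with arrays centred on their medians (0.28, adjusted p = 0.0670, and 0.52, adjusted p = 0.0521), with 4 sets of arrays (mutant 1 to 3, mutant 4 to 6, control 1 to 3 and control 4 to 6) as a random block (adjusted p = 0.146 and 0.153) and without control posterior array 4 (0.30, adjusted p = 0.0547, and 0.49, adjusted p = 0.0667), and for Etv5 also with the anterior arrays left out of the fit (adjusted p = 0.0587) and without control posterior array 2 (0.54, adjusted p = 0.0538). Within arrays 1 to 3 the differences were 0.35 for Dusp6, called, and 0.30 for Etv5 (adjusted p = 0.367), and within arrays 4 to 6 they were 0.30 for Dusp6 (adjusted p = 0.208) and 0.84 for Etv5, called (all limma). Spry1 and Spry2 differed by 0.44 and 0.38 within arrays 1 to 3 and by -0.10 and -0.28 within arrays 4 to 6, none called. With the replicate number as a block, 2 of the 13 probe sets were called (Etv5 1450082_s_at and 1420998_at), while both genes kept their calls in the fit over genes, with adjusted p of 0.0448 for Dusp6 and 0.0483 for Etv5 (limma).

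**Figure D2:**
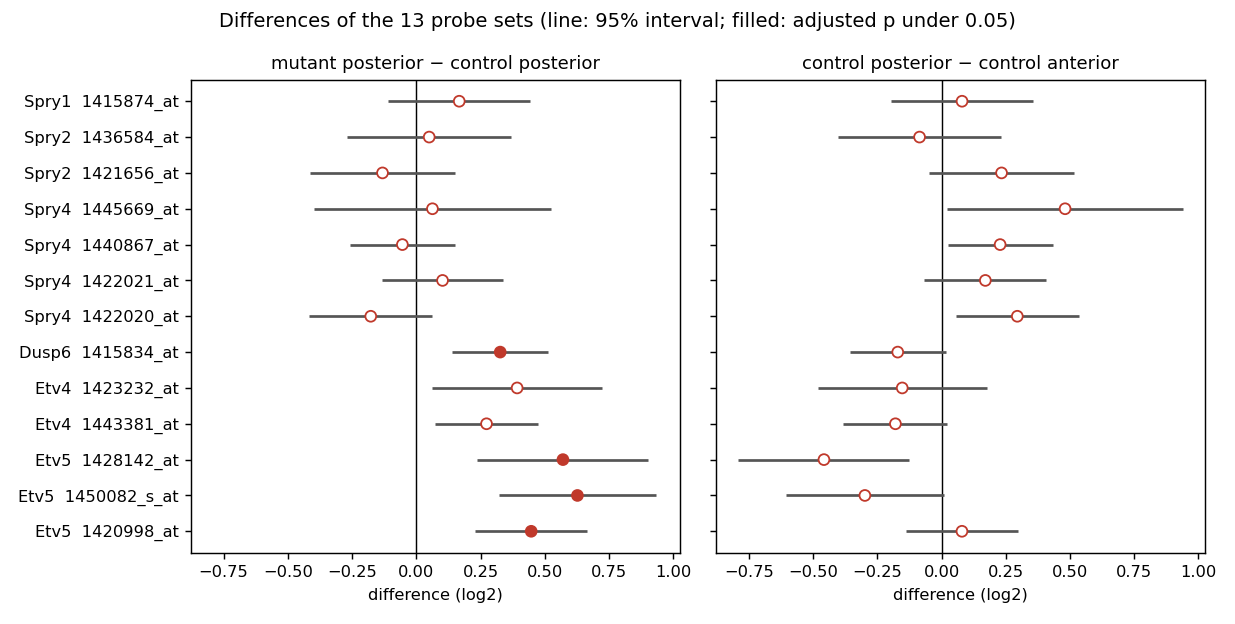
Difference on the log2 scale (horizontal axis) for each of the 13 probe sets (rows, by gene), mutant posterior minus control posterior on the left and control posterior minus control anterior on the right; lines are 95% intervals and filled points have an adjusted p under 0.05. On the left 10 of 13 points lie right of 0 and 4 are filled, the Dusp6 probe set and all 3 of Etv5; on the right none is filled.

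**Figure D3:**
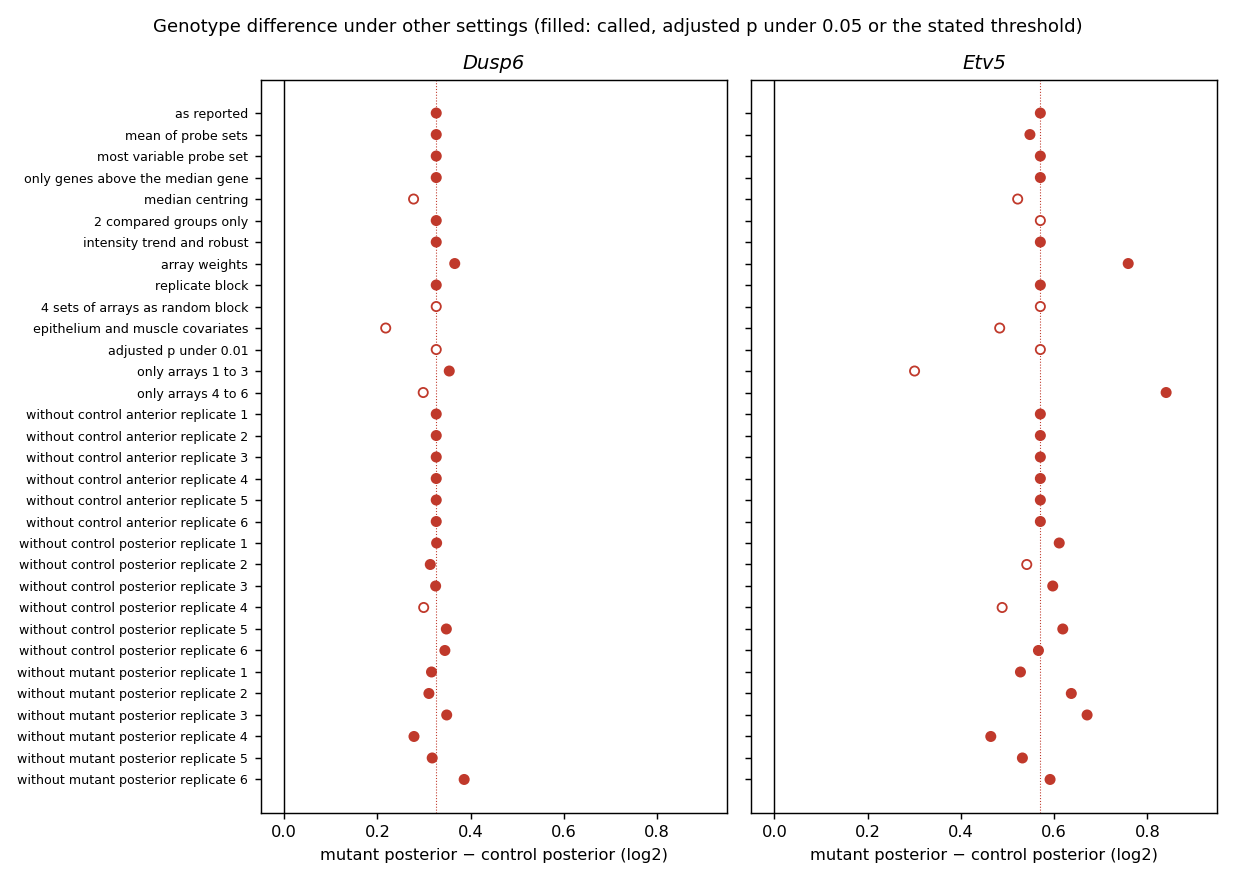
Difference between mutant and control posterior palate (log2, horizontal axis) for Dusp6 and Etv5 as reported and under each other setting (rows); filled points were called. All points lie right of 0, from 0.22 to 0.39 for Dusp6 and from 0.30 to 0.84 for Etv5, and both reported points and 25 and 23 of the 31 others are filled.

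The 6 genes varied more between mutant arrays than between control posterior arrays, as most genes did. The SD was larger in mutant than in control posterior palate for 6 of 6 genes and 12 of 13 probe sets, and for 84.8% of all genes, and the median SD was 0.233 among mutant and 0.128 among control posterior arrays. The reported fit uses a shared variance for each gene over the 3 groups, so it does not model this unequal spread. Mutant array 4 gave the highest mutant value of 4 of the 6 genes, and mutant array 6 the lowest of 4. Skeletal muscle markers also varied across these arrays: the mean level of 12 markers was 11.8, 10.8, 10.7, 11.4, 10.3 and 9.05 on mutant arrays 1 to 6. Its mutant range of 9.05 to 11.8 enclosed the control posterior range of 9.15 to 10.3 (summed levels 109 to 142 and 110 to 124), with 1 of 12 markers called higher. By deviations from the group means, Pearson's r with this muscle mean was 0.79 for Spry1, 0.74 for Spry2, 0.67 for Dusp6 and 0.58 for Etv4. It was only 0.17 for Spry4 and 0.16 for Etv5. With the mean of the stratified epithelium genes, r was -0.83 for Spry4, -0.58 for Etv5, -0.57 for Etv4, -0.41 for Dusp6, -0.23 for Spry2 and -0.083 for Spry1. Muscle was not the only list with such values. For Spry1, r was -0.69 with palate mesenchyme, -0.62 with endothelial and 0.62 with erythroid genes. With the same lists it was -0.57, -0.58 and 0.66 for Spry2, 0.45, 0.51 and -0.11 for Etv5, and -0.18, -0.17 and 0.10 for Dusp6. In bulk tissue, fewer cells of a type and less RNA per cell cannot be told apart.

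Markers of other cells were also compared between mutant and control posterior palate, where 13.5% of all 18193 genes were called. Of 14 stratified epithelium genes, 8 were called higher and 0 lower in mutant posterior palate, and their summed level was 113 to 137 there against 101 to 112 in control posterior palate, with no overlap. The 12 basal and simple epithelium genes gave 0 calls, with sums of 109 to 142 in mutant and 134 to 139 in control posterior palate, the lowest on mutant array 1. Calls among the other lists were 1 higher of 8 cartilage and bone genes (sums 69.0 to 81.1 in mutant and 65.2 to 71.2 in control posterior palate), 1 higher of 10 palate mesenchyme genes, 1 higher and 2 lower of 8 leukocyte genes, 2 lower of 6 erythroid genes, 1 higher of 6 glia and neuron genes and 0 of 8 endothelial genes. The glia and neuron sums spread widely between mutant arrays, from 36.6 to 61.9, against 48.6 to 52.4 in control posterior palate. No marker is at 0 on this scale. With the basal epithelium and muscle levels as covariates the differences were 0.22 for Dusp6 (adjusted p = 0.107) and 0.48 for Etv5 (adjusted p = 0.0948) in limma, and those of Spry1, Spry2 and Spry4 were -0.041, -0.19 and -0.078 and that of Etv4 was 0.18. The part of the stratified epithelium and cartilage and bone genes in these results was not tested.

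In control palate, the 6 genes were compared between the posterior and the anterior region, which uses the same control posterior arrays as the genotype comparison. None of the 6 passed the test, where 3.82% of 18193 genes were called, and 2 of them (Etv5 and Spry4) had an unadjusted p under 0.05. The median of the 6 differences was -0.12 and 2 were positive, against a median of -0.02 and 45.9% positive over all genes. Etv5 read 7.74, 8.21 and 8.39 in control posterior palate, against 8.37, 8.58 and 8.91 in control anterior palate. 5 posterior arrays lay below every anterior array, and the groups overlapped by control posterior array 5. The difference was -0.46 (SE 0.16, 95% interval -0.79 to -0.12, adjusted p = 0.119, limma); with the mutant arrays left out of the fit it was called (adjusted p = 0.0309), as it was with array weights (-0.49, adjusted p = 0.0152). The Etv5 probe set 1450082_s_at differed by -0.30 (adjusted p = 0.330, limma), and 1420998_at by 0.08 (adjusted p = 0.768, limma), so the 3 probe sets did not share a sign here.

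Spry4 differed the other way between the regions. It read 6.54, 6.75 and 7.11 in control posterior palate, against 5.79, 6.29 and 6.87 in control anterior palate. All 6 posterior arrays lay above the anterior mean, but only 1 lay above every anterior array. The difference was 0.48 (SE 0.22, 95% interval 0.02 to 0.95, adjusted p = 0.237, limma), and the other 3 Spry4 probe sets differed by 0.17 to 0.29, none called. Dusp6 read 9.62, 9.75 and 9.86 in control posterior and 9.81, 9.84 and 10.17 in control anterior palate, a difference of -0.17 (adjusted p = 0.294, limma). The posterior arrays of Dusp6 lay below the anterior mean on 6 of 6 arrays and overlapped the anterior range. The differences of Etv4, Spry2 and Spry1 were -0.15, -0.09 and 0.08, with adjusted p of 0.638 to 0.807 in limma. By probe set, 0 of 13 were called, where 1.86% of 45037 were, and 4 had an unadjusted p under 0.05. All 12 skeletal muscle markers were called higher in control posterior palate, with summed levels of 110 to 124 there against 63.2 to 90.0 in control anterior palate. With basal epithelium and muscle levels as covariates the region differences were -0.65 for Dusp6, -0.59 for Etv5, -0.89 for Etv4, -1.05 for Spry2, -0.82 for Spry1 and 0.30 for Spry4, with adjusted p of 0.0984 to 0.782 in limma. Since muscle levels did not overlap between the regions, that fit cannot separate muscle level from region.

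Across the 3 groups, the mean levels of Dusp6, Etv4 and Etv5 were highest in mutant posterior, next in control anterior and lowest in control posterior palate. Those of Spry1 and Spry4 were highest in mutant posterior, next in control posterior and lowest in control anterior palate, and those of Spry2 were highest in control anterior, next in mutant posterior and lowest in control posterior palate. Only the steps between mutant and control posterior palate for Dusp6 and Etv5 passed the test. Between mutant posterior and control anterior palate no gene was called, where 27.2% of genes were; the differences were largest for Spry4 (0.54, adjusted p = 0.0765) and Spry1 (0.25, adjusted p = 0.172), and smallest for Spry2 (-0.04, adjusted p = 0.884), with Dusp6 at 0.16, Etv4 at 0.24 and Etv5 at 0.11 (limma). The dim Etv5 probe set 1420998_at was called there (0.53, adjusted p = 0.00180, limma), where 22.5% of probe sets were.

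The rest of the pathway was read from lists of genes at each step. Of the 80 genes measured, 12 were called in the mutant comparison (15%), where 13.5% of all genes were. Of 22 FGF ligand genes, 3 were called higher and 1 lower in mutant posterior palate. Fgf21, an endocrine FGF, averaged 5.25 ± 0.35 in mutant and 7.03 ± 0.57 in control posterior palate (SD, n = 6 each), a difference of -1.78 (SE 0.27, adjusted p = 5.96e-04, limma), so that the mutant mean sat at the background reading. Fgf10, a mesenchymal ligand needed for palate growth, differed by 0.57 (adjusted p = 0.0379), Fgf6, a ligand of developing muscle, by 0.96 (adjusted p = 0.0456) and Fgf22 by 0.35 (adjusted p = 0.00624) in limma. Fgf22 averaged 5.71 in mutant and 5.35 in control posterior palate, and Fgf10 6.04 and 5.47. Both control means lay near the background reading. Leaving out 1 array at a time ended the call of Fgf6 in 15 of 18 fits and that of Fgf10 in 7. Under the other settings calls were kept in 12 of 12 for Fgf21, 9 of 12 for Fgf22, 6 of 12 for Fgf10 and 4 of 12 for Fgf6.

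Among 7 receptor and co-receptor genes, Fgfr4 alone was called in the mutant comparison, averaging 7.20 ± 0.74 in mutant and 6.27 ± 0.21 in control posterior palate (SD, n = 6 each), a difference of 0.93 (SE 0.24, adjusted p = 0.0162, limma). The call was kept in 7 of 12 other settings, with differences down to 0.33 and adjusted p up to 0.200, and 0 to 3 receptor genes were called across settings. Fgfr4 is a receptor gene expressed in developing muscle, and it was also higher in control posterior than in control anterior palate, by 1.16 (adjusted p = 0.00978, limma). Its control anterior mean of 5.11 lay below the background reading. With epithelium and muscle levels as covariates that region difference was -0.23 (adjusted p = 0.764, limma). Muscle levels did not overlap between the control regions, so this fit cannot separate muscle level from region, and nothing is drawn from the value. Of 14 measured ERK cascade genes out of 22 listed, 4 were called higher and 0 lower in the mutant. They were Braf, a kinase that activates MEK (0.46, adjusted p = 0.00434), Gab1, a docking protein (0.38, adjusted p = 0.00467), Shc1, an adaptor (0.30, adjusted p = 0.0117), and the kinase gene Araf (0.37, adjusted p = 0.0359, limma). Araf is uncertain, since its probe sets disagree: their mean differed by -0.12, and the most variable one by -0.81 with an adjusted p of 0.0384 in limma. Calls were kept in 11 of 13 other settings for Gab1, 10 of 13 for Braf and 9 of 13 for Shc1.

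Of 18 other brakes of the pathway, Dusp1, a nuclear phosphatase of MAP kinases, was the only one called in the mutant comparison (0.34, adjusted p = 0.0434, limma), and the call was lost in 12 of 18 fits that left out 1 array. Among 19 other output genes, the early response transcription factors Egr1 and Egr2 were called higher. Egr1 averaged 10.27 ± 0.21 in mutant and 9.55 ± 0.16 in control posterior palate, a difference of 0.72 (SE 0.13, adjusted p = 0.00154, limma). Egr2 averaged 5.81 ± 0.51 in mutant and 4.93 ± 0.10 in control posterior palate (SD, n = 6 each), a difference of 0.88 (SE 0.18, adjusted p = 0.00408, limma), with the control mean below the background reading. Their calls held in all 18 fits that left out 1 array, and in 13 of 13 other settings for Egr1 and 11 of 12 for Egr2; that of Dusp1 was kept in 6 of 13. The median differences of the 5 lists were 0.10 for ligands, 0.14 for receptors, 0.20 for the cascade, 0.05 for other brakes and 0.04 for other output genes.

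Between control posterior and control anterior palate 7 of the 80 genes on these lists were called (8.75%), where 3.82% of all genes were. Fgf5 (1.30, adjusted p = 0.0155) and Fgf7 (0.86, adjusted p = 0.0285), a mesenchymal ligand that acts on epithelium, were higher in control posterior palate, as was Lrig1, a gene for a membrane protein that restrains receptor tyrosine kinases (0.71, adjusted p = 0.0161, limma). Fgf5 averaged 4.84 ± 0.48 in control posterior and 3.54 ± 0.30 in control anterior palate (SD, n = 6 each), both below the background reading. Lower in control posterior palate were Rps6ka3, which encodes a kinase activated by ERK (-0.28, adjusted p = 0.0159), and the transcription factor genes Jun (-0.40, adjusted p = 0.0222) and Ets2 (-0.39, adjusted p = 0.0371, limma). Leaving out 1 array ended the call of Ets2 in 7 of 18 fits, of Fgf7 in 5 and of Jun in 3. Under the other settings calls were kept in 6 of 13 for Rps6ka3 and Ets2, 8 of 13 for Jun, 8 of 12 for Fgf5 and 9 of 13 for Fgf7 and Lrig1. The list medians were 0.02 for ligands, 0.07 for receptors, -0.10 for the cascade, -0.11 for other brakes and -0.07 for other output genes, against -0.02 over all genes.

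**Figure D4:**
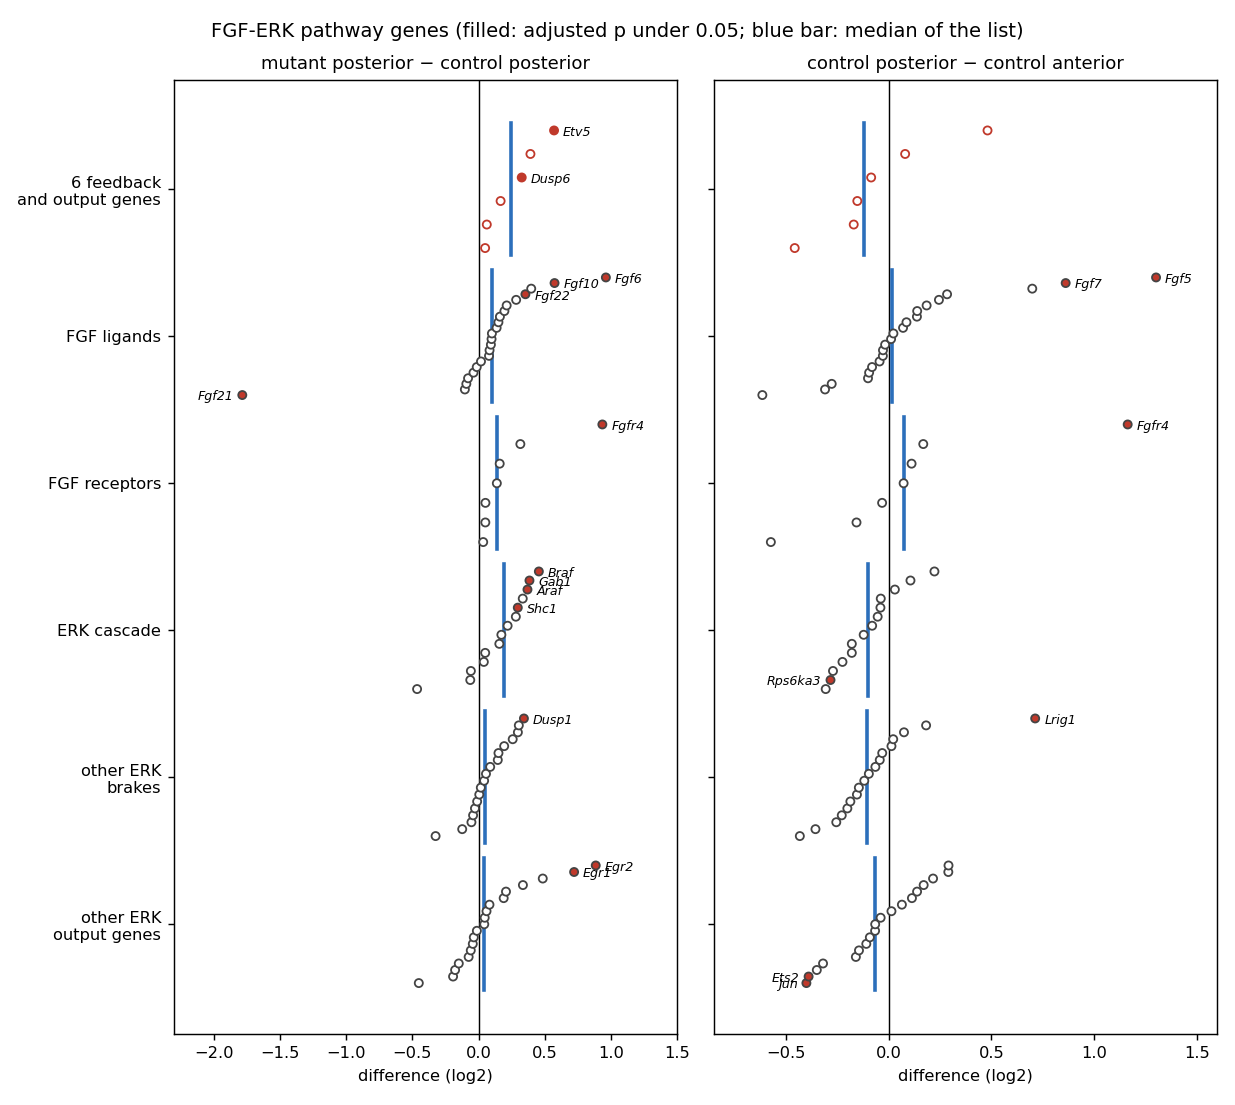
Differences on the log2 scale (horizontal axis) of the 6 genes and of 5 lists of pathway genes (rows; each point 1 gene, ordered by its value), mutant posterior minus control posterior on the left and control posterior minus control anterior on the right; filled points have an adjusted p under 0.05 and are named, and blue bars are list medians. Etv5 and Dusp6 are the filled points of the top row on the left, and no point of that row is filled on the right.

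Genes whose levels ran most like the 6 genes were found by Pearson's r with the mean of the 6 z-scores over the 18 arrays, among 8937 genes above the median level, as a description in which all points share the arrays and their groups. The closest were Btbd1 (r = 0.79), Deptor (0.78), Gars (0.76), Shisa2 (0.75) and Pcbd1 (0.75). Deptor, whose product binds and inhibits mTOR, was the only one of these 5 called in the mutant comparison (0.62, adjusted p = 0.0238, limma). By deviations from the group means, which leave out differences between groups, the closest were Tmsb10 (0.86), Cdh15 (0.85), Shisa2 (0.85), Myh8 (0.81) and Actn2 (0.80). Cdh15, Myh8 and Actn2 encode a cadherin, a myosin and an actinin of skeletal muscle, and Myh8 and Actn2 are among the muscle markers above. By these deviations, r between pairs of the 6 genes ran from -0.16 (Spry1 with Spry4) to 0.84 (Spry1 with Spry2). The mean of the 6 therefore does not stand for each gene. Over the 18 arrays, the genes closest to Etv5 itself were Ptpn11 (r = 0.82), Chd4 (0.80) and Slc7a5 (0.80).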

How the data were processed

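RNA of mouse palate was hybridized to 18 one-colour Affymetrix arrays, with 6 for every 1 of the 3 groups, taken from the sample titles. The deposited log2 values were made by the authors with RMA, per the submitters' processing notes, with no version given, and were used unchanged; neither scanner files nor detection calls were used, and the number of arrays limits the precision. Quantile normalization removes a shift shared by most genes.

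Of 45101 probe sets, 34945 had 1 symbol in the platform annotation, 932 several, 9160 were unlisted and 64 were controls, left out of tests. The brightest probe set with 1 symbol stood for each of 18193 genes (18032 matched RefSeq by gene number). limma 3.58.1 (lmFit, eBayes; R 4.3.3, statmod 1.5.0) was fitted to the 3 groups together (15 residual degrees of freedom, 2-sided), and calls needed a p under 0.05 after Benjamini-Hochberg adjustment over all genes, or over all 45037 probe sets for single probe sets. Intervals are 95%. In simulated data over 18193 genes the genotype fit recovered 56.9% of genes changed by 0.5, 84.6% by 1 and 100% by 2, with 5.92% of calls false. These rates hold for the simulated data only. Whether they carry over to the real arrays, with a median SD of 0.233 in mutant and 0.128 in control posterior palate, was not tested.

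The 6 genes, the lists (80 of 89 pathway and 84 of 90 marker genes measured) and the tests were chosen with earlier results of these data known. Named from each list were up to 4 called genes with the largest difference per comparison, and the 5 genes most alike by each of 2 measures. Equal replicate numbers of control posterior and control anterior arrays deviated together (r across genes 0.111 to 0.430, above 0.1 in 6 of 6 pairs). Of mutant and control posterior pairs 2 of 6 exceeded 0.1. The labels give no pairs and the reported fits used none, and the replicate number entered only as a block in an alternative setting. Arrays 1 to 3 also stood apart from arrays 4 to 6 in both control groups, so these r values cannot show pairing. Alternatives were other probe set choices, a filter on dim genes, median centring, other variance models, array weights, blocks, covariates, a stricter threshold, subsets of arrays and leaving out each array. Figures used matplotlib 3.10.9 in Python 3.11.15.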

Additional observations from a re-analysis of the deposited data

Results flagged for a closer look

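The lowest mutant posterior value of the dim Spry2 probe set 1421656_at stood apart from the other 5: mutant array 3 read 4.73, with the next array at 5.28. It was the only such value in 39 groups of 6 arrays (13 probe sets in 3 groups), where chance gives about 1 in 20. The bright Spry2 probe set showed no such gap on that array.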

How the results depend on the processing

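Over 31 settings other than the reported one, the genotype difference stayed positive in all for Dusp6 (called in 25, adjusted p 0.00582 to 0.208) and Etv5 (called in 23, adjusted p 0.00257 to 0.367); the cause of the lost calls was not tested. Single values are log2 differences, mutant posterior minus control posterior unless region (control posterior minus control anterior) is named, and gene counts are genes called, 2449 for genotype and 695 for region as reported. Median centring gave 0.28 for Dusp6 and 0.52 for Etv5 with 0 of the 6 genes called and gave 40.5% of calls as higher for genotype and 71.2% for region, where the fit as reported gave 57.5% and 44.5%. Fitting the 2 compared groups alone gave 0.57 for Etv5, 1572 genes and 1 of the 6 genes for genotype, and -0.46, 2151 genes and 1 of the 6 genes for region. Array weights gave -0.013 for Spry2 and -0.011 for Spry4 1422021_at, and for region -0.49 for Etv5, 3356 genes and 1 of the 6 genes. The 4 sets as a random block gave 0.33 for Dusp6, 0.57 for Etv5, 588 genes and 0 of the 6 genes, and 1322 genes for region. Epithelium and muscle covariates gave 0.22 for Dusp6, 0.48 for Etv5 and 0 of the 6 genes, with -0.041 for Spry1, -0.19 for Spry2 and -0.078 for Spry4. For region they gave 55 genes, -0.82 for Spry1, -0.28 for Fgf5, -0.23 for Fgfr4, 0.16 for Ets2, -0.18 for Etv5 1420998_at and -0.014 for Spry4 1440867_at. These region values cannot separate muscle level from region, since muscle levels did not overlap between the regions. At an adjusted p under 0.01 the differences of 0.33 (Dusp6) and 0.57 (Etv5) were not called (905 genes, 0 of the 6 genes; 251 genes for region). Arrays 1 to 3 alone gave 0.30 for Etv5, 0.44 for Spry1, 0.38 for Spry2, 0.52 for Etv4, -0.19 for Spry4 and 1 of the 6 genes, with 148 genes and -0.046 for Etv5 1420998_at for region; arrays 4 to 6 gave 0.30 for Dusp6, -0.10 for Spry1, -0.28 for Spry2, -0.025 for Spry4 1422021_at and 1 of the 6 genes, with 220 genes and -0.037 for Spry1 for region. The mean of probe sets gave -0.041 for Spry2, -0.017 for Spry4 and 0.33 for Etv4 (adjusted p = 0.0424), 0.074 for Spry2 between regions and -0.12 for Araf, whose most variable probe set gave -0.81. Spry4 and Etv4 fell under the filter on dim genes.

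Leaving out 1 array gave 0.28 to 0.39 for Dusp6, 0.46 to 0.67 for Etv5, 0.32 to 0.51 for Etv4, -0.039 to 0.16 for Spry2, -0.12 to 0.18 for Spry4 and 0.075 to 0.26 for Spry1, with 0 to 3 of the 6 genes and 1512 to 2735 genes called for genotype and 389 to 1213 genes for region. Called probe sets of the 6 genes ranged from 2 to 5. With the replicate block, 2495 genes were called for genotype and 677 for region, and no gene of the 6 changed its call; of the control posterior arrays, 3 of 6 had their own number as the closest anterior array. Levels near the background reading of 5.24 may be background, which limits the dim probe sets.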
